A study of Mus musculus with 2 samples.

Results

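Afp, Gpc3, Igf2, H19, Cd24a, Sox9, Epcam, Krt19, Spink1 and Tspan8, genes used as markers of liver tumours and of liver progenitor cells, were followed through single-cell RNA counts from the tumour region of mouse liver. They are 10 of the 31053 genes in the files and were matched by symbol. They were chosen because their levels in hepatocytes of these 2 libraries had already been seen to differ, so every level given here is a description of that difference and no test supports it. The first library came from C57BL/6 mice on the CD-HFD diet for 15 months that received a FABP5 inhibitor from month 13, and the second from control mice on the same diet, all recorded as 17 months old. FABP5 binds fatty acids and carries them within the cell. The sources used here do not say how many mice were pooled into a library or what the control animals received. Tissue was digested with collagenase and cells were selected with an Annexin V kit, a reagent that binds dying cells, without a statement of which fraction was sequenced. With 1 library per group there was no replicate check, and differences between animals, tumours and preparations cannot be told apart from a difference between treatments.

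In the fetal liver, hepatoblasts give rise to hepatocytes and to cholangiocytes, the lining cells of bile ducts. Afp codes for a fetal serum protein, Gpc3 for a cell-surface proteoglycan, Igf2 for a growth factor and H19 for a non-coding RNA from the same imprinted locus, and all are largely silent in adult hepatocytes and can return in hepatocellular carcinoma. Sox9, a transcription factor, Krt19, a keratin, and the surface proteins Epcam and Cd24a are known from bile ducts and from ductular or progenitor cells of injured liver. Spink1 codes for a secreted trypsin inhibitor and Tspan8 for a tetraspanin membrane protein, both described in tumours of the digestive tract and liver.

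The FABP5 inhibitor library held 10649 barcodes with a median of 5971 unique molecular identifiers (UMIs), each UMI standing for 1 captured mRNA, and the control library held 9493 barcodes with a median of 4157. A barcode was taken as a hepatocyte when it held at least 20 UMIs of Alb, Apoa1, Ttr and Fabp1 together and at most 1 UMI of the leukocyte gene Ptprc. With at most 25% of UMIs from mitochondrial genes, 131 inhibitor barcodes (1257128 UMIs) and 266 control barcodes (2979353 UMIs) remained, and without that limit 169 and 1847. Only 29 barcode sequences occurred in both libraries, and 0 of them lay within the hepatocyte gate of both. The gate differed in make-up between the libraries. Within the mitochondrial limit, inhibitor barcodes of the gate had a median mitochondrial share of 0.924% (quartiles 0.164 to 3.49). Control barcodes of the gate had a median of 7.63% (3.55 to 12.2). In the inhibitor library 65 of the 131 barcodes (49.6%) reached the gate only through Fabp1, a fatty acid binding protein of hepatocytes. This was true of 15 of 266 control barcodes (5.64%). Alb was detected in 91.6% of inhibitor and 100% of control barcodes of the gate. Glul and Cyp2e1, genes of hepatocytes next to the central vein, were present in 128 and 94 of the 131 inhibitor barcodes, against 53 and 7 of the 266 control barcodes. Markers of another blood, endothelial or stellate class, or haemoglobin at 1% of UMIs or more, were carried by 6 inhibitor and 54 control barcodes of the gate. At the edge of the gate, barcodes with 20 to 24 UMIs of the gate genes held 0 UMIs of any of the 10 genes in 4 inhibitor barcodes, and 4 of Afp, 3 of Gpc3, 1 of H19, 49 of Cd24a, 5 of Sox9, 4 of Epcam, 21 of Spink1 and 33 of Tspan8 in 18 control barcodes. Just outside it, with 15 to 19 such UMIs, 5 inhibitor barcodes again held 0, and 39 control barcodes held 10 of Afp, 84 of Cd24a, 42 of H19, 20 of Spink1 and 3 of Tspan8.

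The promoters of 3 of these genes are shown because Afp and Gpc3 were highest in control hepatocyte barcodes without cholangiocyte markers and Epcam in those with the most. Promoter windows were found in the RefSeq table for 5 of the 10 genes, and the 250 bases before the start of Afp (chr5:90490464-90490713, plus strand), Gpc3 (chrX:52613975-52614224, minus strand) and Epcam (chr17:87635729-87635978, plus strand) are given on GRCm38.p6, 5′ to 3′. None overlaps an annotated exon of its own gene. Capitals mark the motifs searched for on both strands.
Afp: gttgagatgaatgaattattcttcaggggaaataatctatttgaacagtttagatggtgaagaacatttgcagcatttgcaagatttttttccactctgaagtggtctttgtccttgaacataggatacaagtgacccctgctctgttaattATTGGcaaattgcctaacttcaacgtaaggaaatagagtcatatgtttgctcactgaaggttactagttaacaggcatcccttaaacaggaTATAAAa
Gpc3: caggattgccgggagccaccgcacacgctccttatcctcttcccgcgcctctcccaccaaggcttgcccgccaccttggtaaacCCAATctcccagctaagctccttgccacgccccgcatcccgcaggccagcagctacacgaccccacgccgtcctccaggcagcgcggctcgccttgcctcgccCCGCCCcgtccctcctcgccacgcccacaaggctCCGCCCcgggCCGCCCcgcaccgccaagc
Epcam: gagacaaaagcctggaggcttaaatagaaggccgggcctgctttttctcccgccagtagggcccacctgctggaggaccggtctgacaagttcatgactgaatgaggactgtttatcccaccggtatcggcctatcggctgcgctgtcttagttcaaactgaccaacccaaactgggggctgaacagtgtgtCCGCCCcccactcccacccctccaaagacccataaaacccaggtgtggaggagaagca
The motifs were the TATA box TATAAA, the GC box GGGCGG and the CCAAT box CCAAT, which occur in 12.4%, 32.7% and 33.8% of all 32851 windows of this length. The Afp window held 1 TATA box at its 3′ end and 1 CCAAT box read on the opposite strand. The Gpc3 window held 3 GC boxes and 1 CCAAT box, and the Epcam window held 1 GC box. No binding to these windows was measured in this study.

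In hepatocyte barcodes within the mitochondrial limit, Spink1, Tspan8, Epcam, Sox9, Cd24a, Gpc3 and Afp were lower in the FABP5 inhibitor library. Where both libraries held UMIs, these were from 2.10-fold lower for Afp to 32.0-fold lower for Tspan8. Krt19 differed by less than 2-fold, H19 was too rare to compare and Igf2 was not detected. Levels are the UMIs of a gene per 1000000 UMIs of the gated barcodes (CPM), with exact Poisson 95% intervals, which like all intervals here cover counting error only. Of the 8 genes with at least 20 UMIs over both libraries, 7 were at least 2-fold lower and 0 at least 2-fold higher. Among all 9845 genes with as many UMIs, 22.8% were at least 2-fold lower and 11.1% at least 2-fold higher, with a median log2 ratio of -0.12. Relative to UMIs outside mitochondrial genes the counts were again 7 and 0, beside 23.7% lower and 10.2% higher among all genes. The median of the 8 genes was -3.08, and since they were picked from this comparison neither their count nor their median is evidence of their direction.

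**Figure D1:**
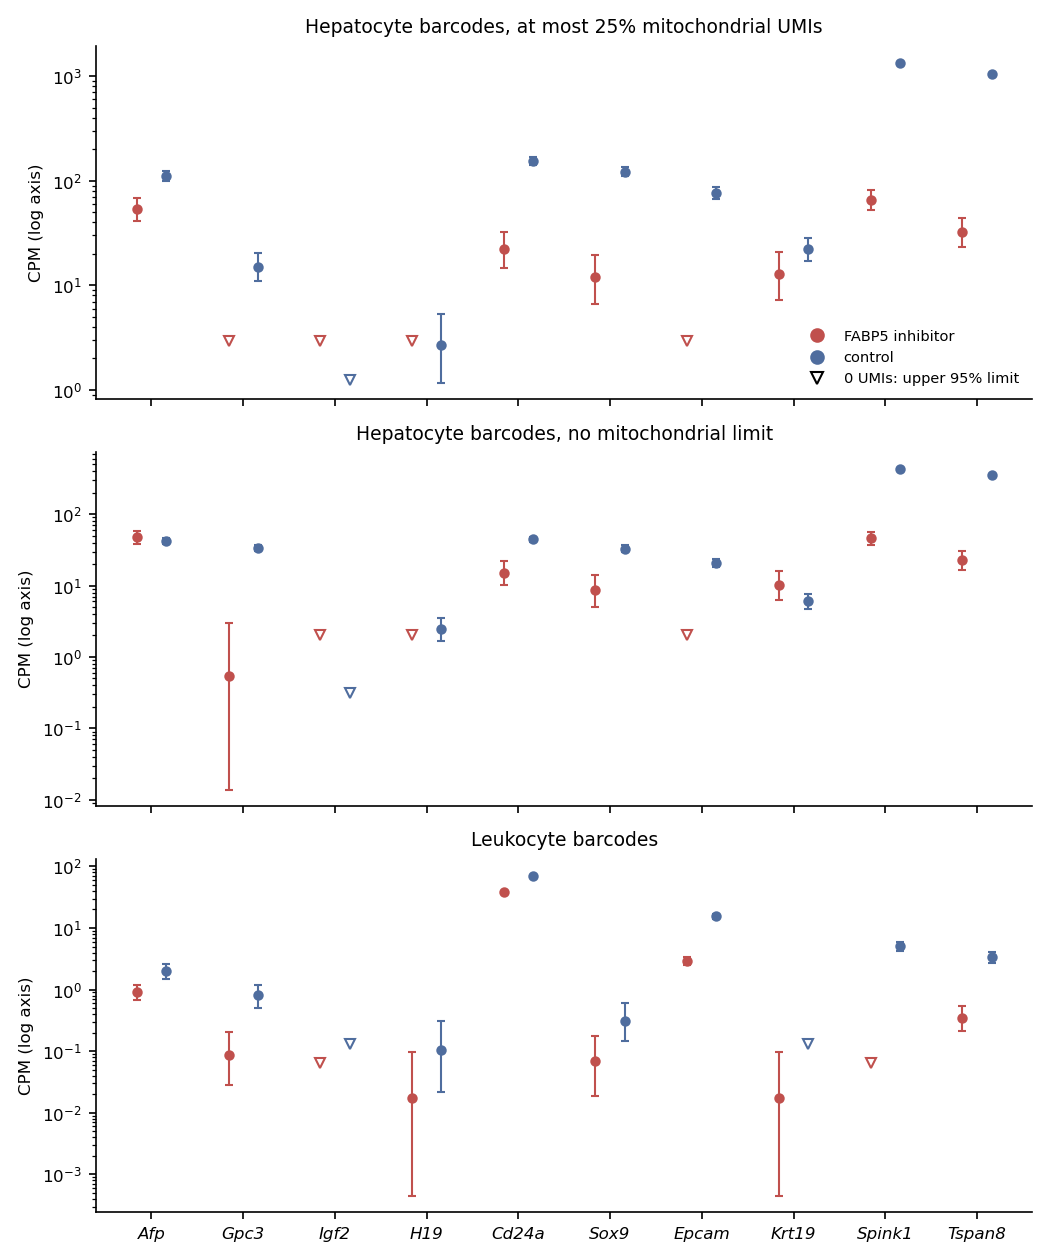
Levels of the 10 genes in CPM (log axis) in hepatocyte barcodes with and without the mitochondrial limit and in leukocyte barcodes, FABP5 inhibitor library (red) left of control (blue), with exact Poisson 95% intervals and open triangles at the upper limit where 0 UMIs were counted. Spink1 lies at 66.0 CPM in the inhibitor library and 1336 CPM in the control library in the upper panel, while Afp lies at 47.4 and 42.2 CPM once the limit is dropped, an order that turns when only non-mitochondrial UMIs are counted.

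Of the fetal liver genes, only Afp was found in this gate in both libraries. It was counted at 67 UMIs in 9 of 131 inhibitor barcodes (53.3 CPM, 41.3 to 67.7) and at 333 UMIs in 72 of 266 control barcodes (112 CPM, 100 to 124). The log2 ratio of inhibitor over control was -1.07 (-1.47 to -0.69). Single barcodes overlapped widely between the libraries, with at most 28 Afp UMIs in an inhibitor and 37 in a control barcode. The Afp ratio missed 2-fold with a gate of at least 10 UMIs (-0.88) and when no Ptprc UMI was allowed (-0.83), and 1 barcode held 41.8% of the inhibitor UMIs. Gpc3 had 0 UMIs in the inhibitor library (at most 2.39 CPM, taking a floor of 3 UMIs over the group) and 45 UMIs in 30 control barcodes (15.1 CPM, 11.02 to 20.21), which is at least 6.33-fold lower. H19 had 0 UMIs in the inhibitor library and 8 in 2 control barcodes, 7 of them in a single barcode, which is at least 1.13-fold lower with the floor. Igf2 had 0 UMIs in all barcodes of both libraries, in and out of the gates. That 0 has a limit of its own, because in GENCODE M21 on GRCm38 the same-strand gene Gm49394 covers 62.8% of the exonic bases of Igf2 (chromosome 7, 142650766 to 142666816) and 99.4% of its last 500, where 3′ counting reads. How reads in shared bases were assigned is not given in the sources used here, and Gm49394, the antisense gene Igf2os and the neighbour Ins2 were also at 0. H19 itself lies 72622 bases from Igf2 on the same chromosome and overlaps no other annotated gene. Afp, Gpc3 and Tspan8 are each overlapped by an antisense gene, and whether the counting used strand was not given.

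The genes of bile duct and progenitor cells were carried by many control barcodes and by very few in the inhibitor library. Cd24a was counted at 28 UMIs in 3 inhibitor barcodes (22.3 CPM, 14.8 to 32.2) and 463 UMIs in 79 control barcodes (155 CPM, 142 to 170), a log2 ratio of -2.80 (-3.41 to -2.25). Without barcodes that carried markers of other cell types, 24 inhibitor and 302 control Cd24a UMIs were left. Sox9 had 15 UMIs in 3 inhibitor barcodes (11.9 CPM, 6.68 to 19.7) and 364 UMIs in 76 control barcodes (122 CPM, 110 to 135), a log2 ratio of -3.36 (-4.21 to -2.61). For Sox9 the richest inhibitor barcode held 9 UMIs and the richest control barcode 33. Epcam had 0 UMIs in the inhibitor library and 227 UMIs in 48 control barcodes (76.2 CPM, 66.6 to 86.8). In the inhibitor library the floor allows 2.39 CPM. A floor of 3 of the 131 barcodes allows a share of barcodes with a detected UMI of up to 2.29%. Epcam was at least 31.9-fold lower. Krt19 was rare in both, with 16 UMIs in 2 inhibitor barcodes (12.7 CPM, 7.28 to 20.7) and 66 UMIs in 11 control barcodes (22.2 CPM, 17.1 to 28.2). Its log2 ratio was -0.80 (-1.69 to 0.00), a single barcode held 14 of the 16 inhibitor UMIs, and with a gate of at least 100 UMIs the ratio was 0.04 (-1.01 to 1.03).

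Spink1 and Tspan8 were detected in more control barcodes than the other 8 genes. Spink1 had 83 UMIs in 2 of 131 inhibitor barcodes (66.0 CPM, 52.6 to 81.8) and 3981 UMIs in 173 of 266 control barcodes (1336 CPM, 1295 to 1378), a log2 ratio of -4.34 (-4.67 to -4.03). Tspan8 had 41 UMIs in 2 inhibitor barcodes (32.6 CPM, 23.4 to 44.2) and 3112 UMIs in 152 control barcodes (1045 CPM, 1008 to 1082), a log2 ratio of -5.00 (-5.48 to -4.56). For these genes nearly all inhibitor UMIs came from 1 barcode, with 82 of the 83 Spink1 and 40 of the 41 Tspan8 UMIs. Control barcodes ranged widely, up to 198 UMIs of Spink1 and 199 of Tspan8 in a barcode, with medians of 7 and 6 among the barcodes that held any.

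**Figure D2:**
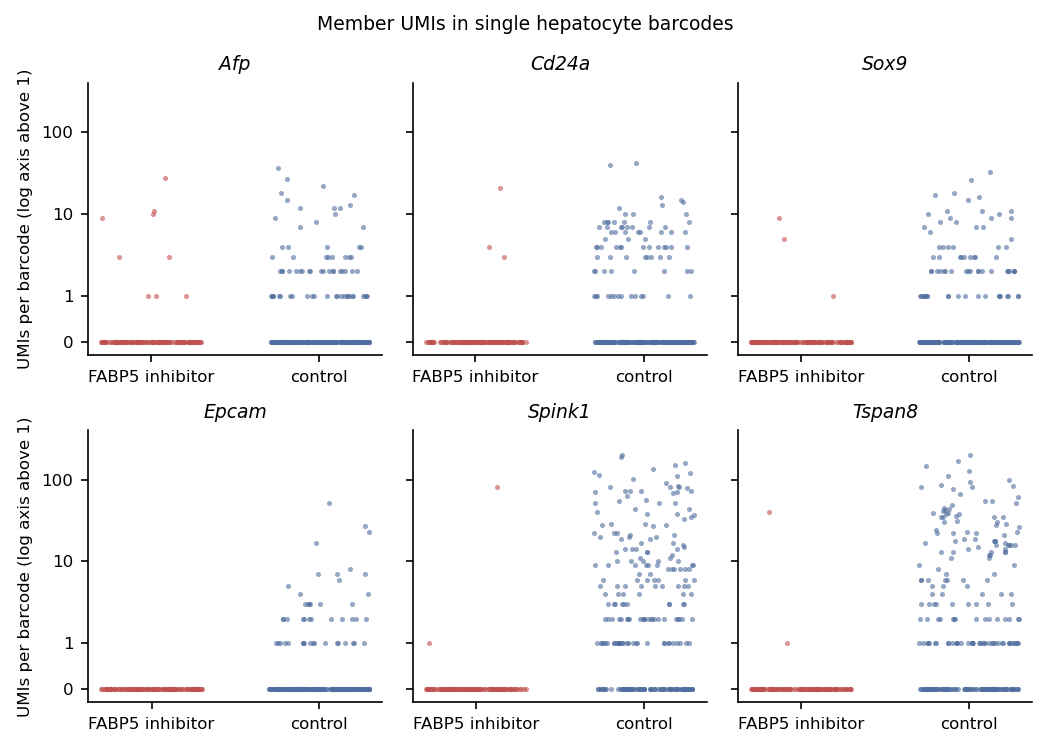
UMIs of 6 of the genes in each hepatocyte barcode within the mitochondrial limit (1 point per barcode, log axis above 1 UMI), FABP5 inhibitor on the left and control on the right of each panel. For Spink1 and Tspan8 all but 2 of the 131 inhibitor points lie at 0, and 1 of those 2 stands far above the rest, at 82 and 40 UMIs, within the control range.

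That 1 inhibitor barcode held 42019 UMIs and, beside Spink1 and Tspan8, 28 of the 67 Afp, 21 of the 28 Cd24a, 9 of the 15 Sox9 and 14 of the 16 Krt19 UMIs of its library. It also held 1571 UMIs of the gate genes, 141 of Krt8, 143 of Lcn2 and 20 of Spp1, and 0 of Cyp2e1 and Glul, genes that most other inhibitor barcodes of the gate carried. It held UMIs of 3 genes of a list of 8 cholangiocyte markers. That list includes Krt7, Cldn4, Cldn7, Cftr, Bicc1 and Pkhd1 and none of the 10 genes. A second inhibitor barcode, of 24285 UMIs, held 5 Sox9, 3 Cd24a and 3 Afp UMIs with 201 of Spp1, the osteopontin gene, known from ductular cells. Without the first barcode the inhibitor library kept 39 UMIs of Afp, 7 of Cd24a, 6 of Sox9, 2 of Krt19 and 1 each of Spink1 and Tspan8. The log2 ratios were then -1.80 for Afp, -4.75 for Cd24a, -4.63 for Sox9, -3.75 for Krt19 (-6.83 to -1.84), -10.67 for Spink1 (-15.97 to -8.19) and -10.31 for Tspan8 (-15.61 to -7.83). Krt19 thereby passed 2-fold, and all 8 measured genes were lower.

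Counted by barcode, 120 of 131 inhibitor barcodes (91.6%) held none of the 10 genes, against 35 of 266 control barcodes (13.2%). At least 4 of the genes were found together in 1 inhibitor barcode (0.763%) and in 76 control barcodes (28.6%). Depth differed in favour of the control, with medians of 3838 UMIs in inhibitor and 5978.5 in control barcodes, so barcodes were also thinned to 1000 UMIs, which left out 13 inhibitor and 32 control barcodes. Spink1 was then seen in 0.847% of inhibitor barcodes (0.021 to 4.63) and 43.6% of control barcodes (37.1 to 50.2), against 1.53% and 65.0% unthinned. For Tspan8 the thinned shares were 0 of 118 inhibitor barcodes (0 to 3.08%) and 34.6% of control barcodes (28.5 to 41.1), with 1.53% and 57.1% unthinned. Afp was found in 1.69% of thinned inhibitor and 12.0% of thinned control barcodes, against 6.87% and 27.1% unthinned. T cell-like barcodes, which should lack Spink1 and Afp and had median depths of 3996.5 UMIs in the inhibitor and 3732 in the control library, showed Spink1 in 0% of inhibitor and 0.803% of control barcodes and Afp in 0.279% and 0.321% after the same thinning. The control hepatocyte shares of Spink1 and Afp therefore stood above those of T cell-like barcodes, and the inhibitor interval for Afp (0.206 to 5.99) reached down to that level.

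Barcodes of at least 10000 UMIs gave a comparison at more equal depth. Among those without markers of other cell types and with at most 2 cholangiocyte markers there were 36 barcodes in each library, with median depths of 20867 UMIs in the inhibitor and 15823.5 in the control library. Spink1 was seen in 0 of the 36 inhibitor barcodes and 35 of the 36 control barcodes, with 0 and 1169 UMIs. Tspan8 was likewise at 0 UMIs in inhibitor barcodes and at 1010 UMIs in 35 control barcodes. Afp had 36 UMIs in 5 inhibitor barcodes (41.7 CPM, 29.2 to 57.7) and 156 UMIs in 15 control barcodes (204 CPM, 174 to 239). Within this set of marker-filtered deep barcodes the inhibitor library held no UMI of Spink1 or Tspan8 and some of Afp. The filter left out the inhibitor barcode with 82 Spink1 UMIs.

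Without the mitochondrial limit the control gate was filled mostly by barcodes rich in mitochondrial UMIs, 1581 of 1847, whereas 38 of the 169 inhibitor barcodes exceeded the limit. UMIs from other genes made up 77.2% of the inhibitor and 38.7% of the control total, and the median log2 ratio of all 10802 genes was 1.21. On this scale 6 of 9 measured genes were at least 2-fold lower and 0 higher, beside 9.45% lower and 58.3% higher among all genes. Relative to UMIs outside mitochondrial genes the median of all genes was 0.22 and 7 of the 9 genes were at least 2-fold lower, beside 19.3% lower and 18.1% higher among all genes. Spink1 had 84 inhibitor and 5052 control UMIs, with log2 ratios of -3.23 for CPM and -4.23 relative to non-mitochondrial UMIs. For Tspan8 the counts were 42 and 4197, with ratios of -3.96 and -4.96 on those scales. Both stayed lower in the inhibitor library on both scales.

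Afp and Gpc3 took different courses when the limit was dropped. Afp had 87 inhibitor and 496 control UMIs, and its log2 ratio was 0.17 (-0.18 to 0.50) for CPM but -0.83 relative to non-mitochondrial UMIs, so its direction turned with the scale. Krt19, with 19 and 71 UMIs, turned likewise, at 0.78 (-0.04 to 1.52) and -0.22. Gpc3 rested mainly on the barcodes over the limit, which held 350 of the 494 Gpc3 UMIs of the control library (70.9%), while 45 (9.11%) lay in those within it. It had 1 UMI in 169 inhibitor barcodes and 395 UMIs in 258 of 1847 control barcodes, a log2 ratio of -5.95 (-11.25 to -3.46). The mitochondrial share was a median of 2.10% in inhibitor and 85.1% in control barcodes of this gate, and its part in the Gpc3 difference was not tested. H19 had 0 inhibitor and 29 control UMIs, in 18 control barcodes, at least 1.51-fold lower. Another 42 H19 UMIs, of 76 in the whole control library, lay in 1 barcode outside the gate with 18 gate-gene UMIs and 1222 UMIs in all, which carried at most 1 marker of any other cell class.

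Within the control gate the 10 genes fell into sets that differed by cholangiocyte markers. Leaving out barcodes with markers of other cell types, 118 control barcodes held 0 of the 8 cholangiocyte markers, 39 held 1 or 2 and 55 held 3 or more, with median depths of 1701.5, 11262 and 22427 UMIs. In the inhibitor library these numbers were 117, 7 and 1. The biliary and progenitor genes were concentrated in the control barcodes with 3 or more markers. From 0 to 1 or 2 to 3 or more markers, Sox9 stood at 14.9, 42.3 and 213 CPM, Cd24a at 4.24, 63.4 and 183 CPM, and Epcam at 0, 17.9 and 148 CPM. All 66 Krt19 UMIs lay in the last set (46.3 CPM). Afp ran the other way, with 280, 205 and 29.5 CPM, and so did Gpc3, with 57.3, 8.13 and 5.62 CPM. Spink1 was nearly level at 1569, 1481 and 1535 CPM, and Tspan8 stood at 448, 1534 and 1303 CPM.

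Depth was greater in barcodes with more markers. Among control barcodes of at least 10000 UMIs the same order held for the biliary genes and for Afp. The 49 with 3 or more markers had 208 CPM of Sox9 (185 to 234), 180 CPM of Cd24a (158 to 203) and 29.9 CPM of Afp (21.5 to 40.6). The 36 with at most 2 had 23.6 CPM of Sox9 (14.0 to 37.3), 48.5 CPM of Cd24a (34.1 to 66.8) and 204 CPM of Afp (174 to 239). For Gpc3 the deep sets gave 5.84 CPM (2.52 to 11.5) and 13.1 CPM (6.28 to 24.1), whose intervals overlap. The set with 3 or more markers also held 25968 UMIs of Spp1 (18235 CPM) and 0 of Cyp2e1, and 20% of its barcodes held Fabp1 (13.3 CPM), against 69.5% of the barcodes with 0 markers (7482 CPM). Of all barcodes of the gate, 9 in the inhibitor and 58 in the control library were among those that scored highest against simulated doublets, and the part of doublets in these sets was not tested.

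**Figure D3:**
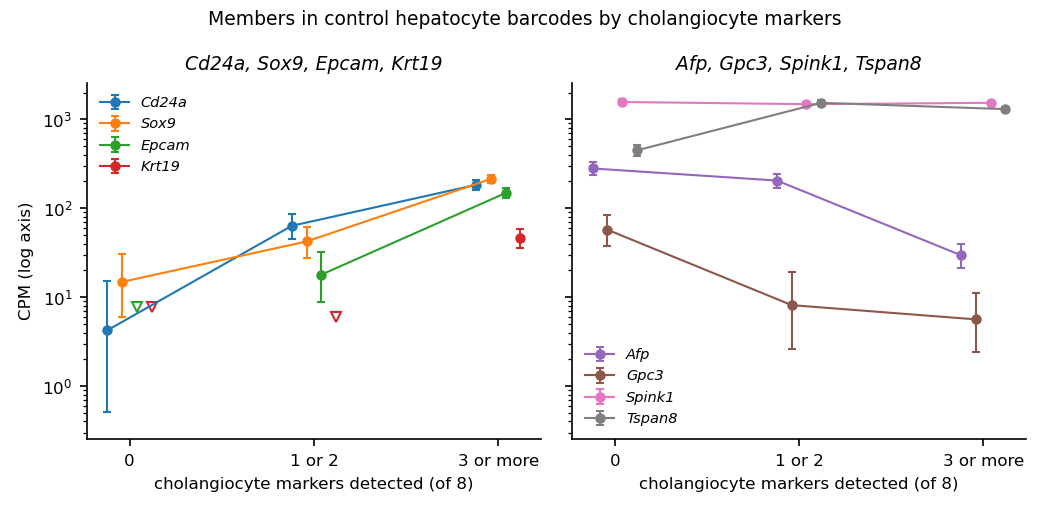
CPM (log axis) of 8 of the genes in control hepatocyte barcodes that held 0, 1 or 2, or 3 or more of 8 cholangiocyte markers, with exact Poisson 95% intervals and open triangles at the upper limit for 0 UMIs. Sox9 stands at 14.9, 42.3 and 213 CPM and Afp at 280, 205 and 29.5 CPM, while Spink1 stays between 1481 and 1569 CPM.

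Barcodes of the gate without any cholangiocyte marker were compared between libraries as well, a choice made after the data had been seen. Spink1 had 1 UMI in 122 inhibitor barcodes and 872 UMIs in 169 control barcodes, and Tspan8 0 and 235. Cd24a had 0 and 139 UMIs there, Sox9 0 and 9, and Epcam 0 and 2. Barcodes with markers of other cell types were kept in this comparison, and without them Cd24a had 2 UMIs in 118 control barcodes. Afp had 17 inhibitor UMIs (17.6 CPM) and 161 control UMIs (185 CPM), a log2 ratio of -3.40, which is larger in size than in the whole gate. The lower Spink1, Tspan8 and Afp of the inhibitor library was thus also measured where no cholangiocyte marker was seen. With a gate on Alb, Apoa1 and Ttr alone, which kept 66 inhibitor and 251 control barcodes, the ratios were -4.14 for Spink1, -4.80 for Tspan8, -3.16 for Sox9 and -2.60 for Cd24a, and that for Afp was -0.88 and no longer past 2-fold.

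Co-detection was read in single control barcodes. All 11 barcodes with Krt19 also held Cd24a, Sox9, Epcam and Tspan8. Of the 48 with Epcam, 91.7% held Cd24a (80.0 to 97.7), 89.6% Sox9 (77.3 to 96.5) and 97.9% Tspan8 (88.9 to 99.9). Spink1 and Tspan8 were broader: 72.3% of the 173 barcodes with Spink1 held Tspan8 (64.9 to 78.8), and 50 of the 125 barcodes with both held none of Cd24a, Sox9, Epcam and Krt19. Of the 72 barcodes with Afp, 34.7% held Cd24a (23.9 to 46.9) and 31.9% Sox9 (21.4 to 44.0), near the 29.7% and 28.6% of all 266 barcodes. Gpc3 met Afp in 13 of its 30 barcodes (43.3%) and Epcam in 2.

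The pattern was also read at greater depth. Among the 100 control barcodes of at least 10000 UMIs, 41 held Epcam, and Cd24a was found in 95.1% of those (83.5 to 99.4), against 33.9% of the other 59. Afp gave no such contrast at this depth, since Cd24a was found in 62.5% of the 32 barcodes with Afp (43.7 to 78.9) and 57.4% of the 68 without, and Epcam in 40.6% and 41.2%. Of the 16 with Gpc3, 12.5% held Epcam (1.55 to 38.3), against 46.4% of the 84 without. In the inhibitor library 1 barcode held Spink1 with Tspan8, and it was the one described above.

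**Figure D4:**
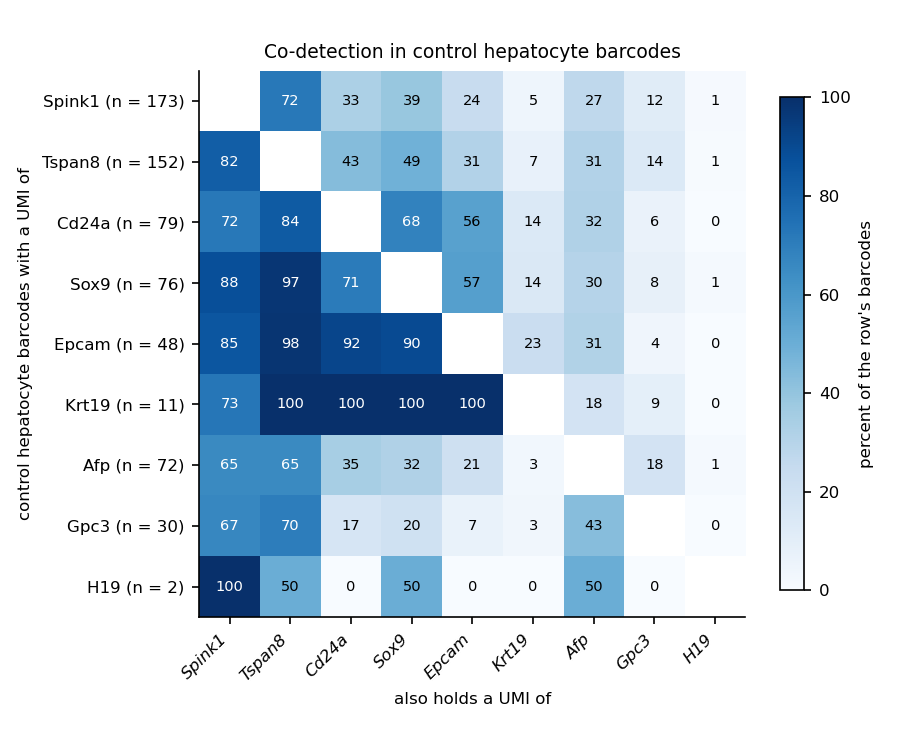
Percent of the control hepatocyte barcodes with a UMI of the row gene (n in brackets) that also held a UMI of the column gene. The rows of Epcam and Krt19 are dark under Cd24a, Sox9 and Tspan8, with 100% for all 11 Krt19 barcodes. The Afp and Gpc3 rows are light under Epcam and Krt19, which were found in 18.0% and 4.14% of all 266 barcodes. Among barcodes of at least 10000 UMIs, Epcam was found in 40.6% of those with Afp and 41.2% of those without.

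Likeness was measured as the correlation of log-scaled UMIs per 10000 over the 1847 control hepatocyte barcodes of all mitochondrial shares. These barcodes come from 1 library, differ in depth and mitochondrial share, and include those with markers of other cell types. The 3161 candidates were genes found in at least 5% of those barcodes in both libraries, which left out the 10 genes themselves except Afp. Among the candidates Sox9 was most like Sox4 (r = 0.59), a transcription factor of the same family, then Slc25a4 and Tm4sf4. The candidates closest to Epcam were Slc25a4 (0.54), Sox4 and the liver transcription factor Onecut2. Between the 10 genes, whatever their share of barcodes, the closest pairs were Epcam with Krt19 (0.56), Epcam with Sox9 (0.54) and Epcam with Cd24a (0.42). Krt19 held UMIs in only 14 of these control barcodes, under the 20 asked of a correlated gene, so its pair rests on few barcodes. Spink1 went with the liver enzymes Rida (0.56), Gsta3 and Bhmt, and Tspan8 with the keratins Krt18 (0.48) and Krt8 and with Tm4sf4. Cd24a was most like H3f3a (0.48), Gabarapl2 and Mkrn1, and Afp most like A2ml1 (0.39), Pnpla7 and Mpc1. In the 2 barcodes richest in Cd24a within the mitochondrial limit, haemoglobin made up 50.1% and 8.90% of UMIs. The part of such barcodes in the Cd24a correlations was not tested. No gene reached 0.3 with Gpc3. In the inhibitor library each of the 10 genes was seen in fewer than 20 barcodes, so none was correlated there.

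Related genes were read in hepatocyte barcodes within the mitochondrial limit, from lists drawn up with earlier results of these data known. Of 9 measured biliary and ductular genes, 9 were at least 2-fold lower in the inhibitor library and 0 higher, with a median log2 ratio of -2.78, beside 22.8% lower, 11.1% higher and a median of -0.12 for all genes. Krt8 (-1.30) was nearest to the control, and Spp1 (-5.91) and the tight junction gene Cldn7 (-5.21, -7.50 to -3.65) furthest below it. All 5 measured targets associated with YAP, a growth-control coactivator, and SOX9 were lower (median -4.22), among them Ankrd1 (-5.31, -8.37 to -3.44), Ctgf (0 UMIs against 137, at most -4.27), Amotl2 (-3.64, -6.72 to -1.72) and Axl (0 against 29, at most -2.03). Of 13 measured other liver tumour genes, 8 were lower and 2 higher (median -1.44), beside 22.8% and 11.1% of all genes. The lowest were Tff3 (-5.10) and Igdcc4 (-3.00, -8.38 to -0.35), and the 2 higher were the retinal dehydrogenase gene Aldh1a1 (1.94) and the cyclin gene Ccnd1 (1.26).

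Known repressors of Afp and other liver transcription factors were counted next. Of 9 measured, 2 were at least 2-fold higher, among them Nr5a2 (1.28), and 0 lower (median 0.27). Zhx2 and Zbtb20, which in mouse liver repress Afp after birth, had log2 ratios of -0.08 (-1.30 to 1.03) and 0.27 (0.09 to 0.44). Cebpa (-0.32) and Foxa2 (-0.14) had the lowest ratios of this list. Among 5 measured imprinted genes, 3 were lower and 0 higher (median -1.69), with Cdkn1c (0.07) and Igf2r (-0.34) highest, and Peg3 (at most -2.03) and Meg3 (-1.96) lowest. Of 8 measured genes of the IGF pathway, 4 were lower and 0 higher (median -0.94), beside 22.8% and 11.1% of all genes, with Igfbp2 (-0.08) and Igfbp4 (-0.14) at one end and the binding proteins Igfbp3 (-4.63, -7.69 to -2.74) and Igfbp1 (-1.88) at the other. Mature hepatocyte genes split, with 2 of 9 higher, Glul (7.94) and Cyp2e1 (7.64), and 3 lower, the lowest being Cps1 (-4.50) and Fgb (-2.35), and a median of -0.39. Among all genes 11.1% were higher and 22.8% lower. Of 5 cell cycle genes 1 was higher, Cdk1 (1.21), and 0 were lower (median -0.07), with Ccnb1 (0.07) next and Mki67 (-0.81) and Top2a (-0.17) lowest. Without the mitochondrial limit, 9.45% of all genes were lower and 58.3% higher. Lower and higher were then 7 and 0 of 10 biliary genes and 5 and 0 of 5 YAP and SOX9-associated targets. Tumour genes gave 4 and 3 of 13, transcription factors 0 and 8 of 9, and imprinted genes 0 and 2 of 5. Relative to non-mitochondrial UMIs tumour genes gave 6 and 2, transcription factors 0 and 4 and imprinted genes 2 and 0. On that scale 19.3% of all genes were lower and 18.1% higher. Fewer cells of a type and less RNA per cell cannot be told apart in these summed levels.

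Leukocytes, barcodes with at least 2 Ptprc UMIs, under 20 UMIs of the gate genes and at most 25% mitochondrial UMIs, numbered 7912 in the inhibitor and 4682 in the control library. Cd24a was detected in 14.2% of inhibitor and 16.5% of control leukocytes, and Epcam in 1.64% and 4.38%. Of 6 measured genes, 5 were at least 2-fold lower in the inhibitor library and 0 higher, beside 14.6% lower and 3.88% higher of 13658 genes (median log2 -0.14), and again 5 and 0 relative to non-mitochondrial UMIs, beside 14.8% lower and 3.78% higher among all genes. Spink1 had 0 inhibitor UMIs and 146 control UMIs (5.11 CPM, 4.32 to 6.01), at least 97.9-fold lower. In the control library this leukocyte level of Spink1 was 0.383% of its hepatocyte level, that of Tspan8 0.322% and that of Sox9 0.258%. Alb, a hepatocyte gene, stood at 2.27% in the control library and 0.384% in the inhibitor library. The gate genes also differed between the libraries in leukocytes. Inhibitor and control levels were 17.6 and 376 CPM for Alb and 6.08 and 112 CPM for Apoa1. They were 5.26 and 33.8 CPM for Ttr, while Fabp1 ran the other way at 17.9 and 10.5 CPM. The part of hepatocyte RNA in the leukocyte ratios was not tested. Afp had 52 inhibitor UMIs (0.905 CPM) and 57 control UMIs (2.00 CPM, 1.79% of the control hepatocyte level), and Gpc3 5 and 23 UMIs (5.33%). For Cd24a the leukocyte level was 45.2% and for Epcam 20.2% of the control hepatocyte level, far above the share of Alb.

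Cd24a was counted at 2224 UMIs in inhibitor leukocytes (38.7 CPM, 37.1 to 40.4) and 2005 UMIs in control leukocytes (70.2 CPM, 67.2 to 73.4), a log2 ratio of -0.86 (-0.95 to -0.77). The ratio differed between cell classes, which were assigned by marker genes among all barcodes with under 20 UMIs of the gate genes, whatever their Ptprc count. In monocyte-like or macrophage-like barcodes, 4552 in the inhibitor and 1286 in the control library, Cd24a stood at 23.1 CPM (21.6 to 24.7) and 10.9 CPM (9.01 to 13.0), higher in the inhibitor library. Neutrophil-like barcodes, 664 and 858, had 349 CPM (323 to 377) in the inhibitor and 560 CPM (529 to 592) in the control library. B cell-like barcodes were almost equal at 220 and 222 CPM, and cDC1-like barcodes, a dendritic cell class, had 359 and 288 CPM. A weighting by the classes of the control library was added after the data had been seen. It used the 10 classes of at least 10 leukocyte barcodes in each library, barcodes of tied and of no class included, which covered 97.2% of control leukocyte UMIs. Cd24a then stood at 67.8 CPM in the inhibitor and 70.2 CPM in the control library, a log2 ratio of -0.05. Erythroid-like barcodes also held Cd24a, at 417 CPM (380 to 456) in the inhibitor and 292 CPM (268 to 317) in the control library. In the 2 control hepatocyte barcodes richest in Cd24a, with 42 and 40 UMIs, haemoglobin made up 50.1% and 8.90% of UMIs, and they held 16 and 25 UMIs of the proliferation gene Mki67. Without barcodes that carried markers of other cell types, Cd24a in the hepatocyte gate had 24 UMIs in the inhibitor and 302 UMIs in the control library, a log2 ratio of -2.54.

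Epcam had 169 UMIs in inhibitor leukocytes (2.94 CPM, 2.52 to 3.42) and 440 in control leukocytes (15.4 CPM, 14.0 to 16.9), a log2 ratio of -2.39 (-2.65 to -2.13). The highest levels were in cDC2-like barcodes, conventional dendritic cells, and in plasma cell-like barcodes. The cDC2-like barcodes had 21.7 CPM (14.2 to 31.8) in the inhibitor and 94.3 CPM (79.0 to 112) in the control library. Plasma cell-like barcodes, only 17 and 44, had 76.5 CPM (49.5 to 113) and 40.0 CPM (28.9 to 54.1). Monocyte-like or macrophage-like barcodes had 0.335 and 4.75 CPM, and T cell-like barcodes 7.38 CPM (6.05 to 8.92) and 11.6 CPM (9.70 to 13.8). Weighted by the classes of the control library the Epcam ratio was -1.45, still past 2-fold, and that of Afp was -0.92, no longer past it. Erythroid-like barcodes held 0 Epcam UMIs in both libraries.

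**Figure D5:**
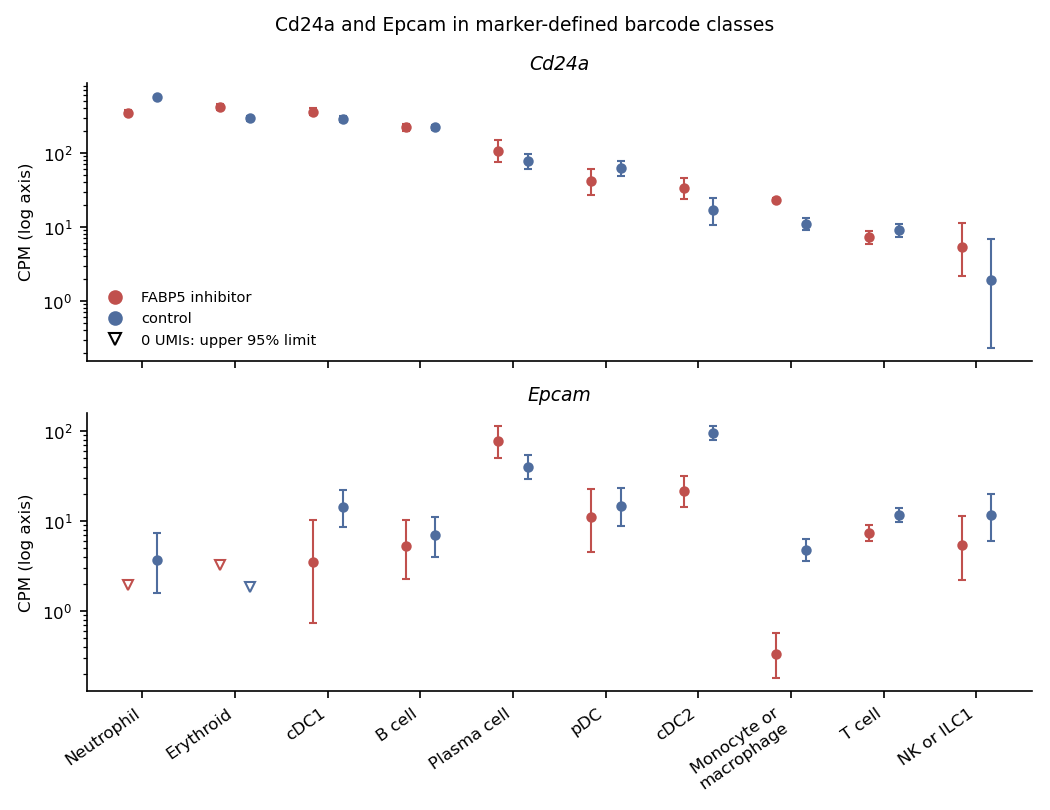
Cd24a and Epcam in 10 marker-defined barcode classes in CPM (log axis), FABP5 inhibitor (red) left of control (blue), with exact Poisson 95% intervals and open triangles at the upper limit for 0 UMIs. Cd24a is highest in neutrophil-like, erythroid-like, cDC1-like and B cell-like barcodes, and the cDC2-like class shows the inhibitor library at 21.7 and the control library at 94.3 CPM of Epcam.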

How the data were processed

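Droplet single-cell RNA libraries, 1 from FABP5 inhibitor mice and 1 from control mice, were analysed from the deposited UMI count matrices, which hold raw whole-number counts per gene and barcode without normalization. Per the file headers the matrices were written by Cell Ranger 5.0.1. Genome build mm9 and the tools R 3.0 and Seurat 3 are named per the submitters' processing notes. Of the feature IDs, 30934 (99.6%) were found in GENCODE M21 on GRCm38, so positions are given on that build and the build behind the counts cannot be told from these sources. The deposited barcodes were already filtered, with at least 500 UMIs in the inhibitor and 502 in the control library.

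Barcodes were gated by marker UMIs as described with the results. UMIs were summed per library and gate and divided by all UMIs of the gate (CPM). Poisson intervals, Clopper-Pearson intervals for shares and conditional binomial intervals for ratios are exact and at 95%. A count of 0 was set to 3 UMIs over the group for a bound on the fold. With 1 library per group no test was run and no p-value is given. A gene was counted as higher or lower when it differed by at least 2-fold and held at least 20 UMIs over both libraries. Barcode classes needed at least 2 markers of the class (3 for cholangiocytes), the class with the largest share of its markers being taken. No doublet caller was used in the main values. The genes named beside the 10 are all members of 8 lists by their counts, the 2 highest and 2 lowest ratios of each list, and the 3 genes with the highest correlation. Some members of these lists are counted but not reported here by name. The 10 genes, the lists and the gates were chosen with earlier results of these data known, and classes, depth sets and the alternatives marked as added were chosen after the data had been seen. The count rule was tested on simulated summed counts without variation between barcodes. That run does not cover genes whose UMIs gather in single barcodes. Python 3.11.15, numpy 2.4.6, scipy 1.17.1, pandas 2.3.3, scikit-learn 1.9.0 and matplotlib 3.10.9 were used.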

Additional observations from a re-analysis of the deposited data

Results flagged for a closer look

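Cd24a differed between the libraries in opposite directions in separate leukocyte classes. Its log2 ratio of inhibitor over control was 1.09 in monocyte-like or macrophage-like barcodes and -0.68 in neutrophil-like barcodes. The difference between these ratios was not tested.

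Epcam did so as well, with a log2 ratio of 0.93 in plasma cell-like barcodes and -3.83 in monocyte-like or macrophage-like barcodes (13 and 52 UMIs). The plasma cell-like value rests on 25 UMIs over 17 inhibitor barcodes and 42 UMIs over 44 control barcodes. The difference between the Epcam ratios was not tested either.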

How the results depend on the processing

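No paired analysis was possible because each group has 1 library. In hepatocyte barcodes within the mitochondrial limit, 5 to 8 of the measured genes were at least 2-fold lower in the inhibitor library and 0 higher under all 13 alternatives run, which changed the gate, the scale, the depth, free RNA, doublets or single barcodes, and the thinned value of 5 was the lowest. Without the limit 4 to 7 were lower. The exception to 0 higher there was the gate of at least 100 UMIs, where 1 gene was higher, Krt19 at a log2 ratio of 1.70 (0.78 with the gate of 20, and -1.12 without the 1 inhibitor barcode richest in these genes). No ratio of the main analysis past 2-fold changed sign, but the size of many ratios depended on the setting. Within the limit 32 of 111 single-gene ratios under the alternatives moved, without it 40 of 112, and in leukocytes 2 of 48. Moved means outside the main counting interval or, where there was no interval, a changed bound. Small changes of a bound, and bounds at least 2-fold lower in both settings, were counted as unmoved. Co-detection depended on depth and threshold. The share of control Spink1 barcodes that held Tspan8 was 72.3%, against 64.1% with at least 2 UMIs, 53.1% without the mitochondrial limit and 40.2% thinned to 1000 UMIs. In leukocytes 5 genes were lower under the other 6 alternatives run and 3 with classes weighted as in the control library, where Afp missed 2-fold and no weighted ratio could be given for Spink1. Removing the barcodes that scored highest against simulated doublets (907 inhibitor and 721 control) moved Afp in the hepatocyte gate to -2.47, against -1.07. With 131 inhibitor barcodes of median depth 3838 UMIs, a floor of 3 barcodes sets a limit of 2.29% where 0 UMIs were counted. That limit is on the share of barcodes with a detected UMI, not the share of cells that express a gene.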
